A study of Mus musculus with 2 samples.

Results

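The prostaglandin genes described here are 10 genes chosen by name. They are the phospholipase Pla2g4a, the synthases Ptgs1, Ptgs2, Ptges and Ptgis, the catabolic enzyme Hpgd, and the receptors Ptger2, Ptger3, Ptger4 and Ptgfr. They were followed at every probe set, that is, every group of short probes for a transcript, whose platform annotation names that gene alone. This gave 16 probe sets for 9 of the 10 genes, out of 20380 probe sets for 12393 genes. Ptgs1, the constitutive cyclooxygenase, was not analysed here.

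Stromal cells are the connective tissue cells under the uterine epithelium, which enlarge and become secretory (decidualize) around an implanting embryo. They were isolated by enzymatic digestion of the uterine horns on day 5 of pregnancy, and RNA from 3 animals per genotype was pooled and measured on 1 Affymetrix Mouse Genome 430A 2.0 array for each of 2 groups. The control group was floxed mice without deletion, titled Hif1 flox and given as Hif2 alpha-intact in the genotype field. The other group, titled Hif1 cKO and given as Hif2 alpha-null, carried the floxed allele with PRcre. A breeding note shared by both groups speaks of floxed Hif1 and of Rac1 as the ablated gene, so the deleted gene is not settled and the array is called cKO-labelled. Cre driven by the progesterone receptor promoter acts in epithelium and muscle of the uterus as well as in stroma. Age and strain background are not given in the sources used here.

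Prostaglandins are short-lived lipid signals made from arachidonic acid, which the cytosolic phospholipase Pla2g4a frees from membranes. The cyclooxygenases Ptgs1 and Ptgs2 convert it to prostaglandin H2, and terminal synthases turn that into prostaglandin E2 (Ptges) or prostacyclin (Ptgis). Hpgd inactivates the products, and the receptors Ptger2, Ptger3 and Ptger4 (for prostaglandin E2) and Ptgfr (for prostaglandin F2 alpha) pass the signal to G proteins. In mice, loss of Ptgs2 or Pla2g4a disturbs implantation, and Ptgs2 is induced in the stroma around the attaching embryo.

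Values are MAS5 signals, intensities on a linear scale. Signals below a floor of 19.7, the 40th percentile of both arrays, were raised to it, and the log2 ratio is cKO-labelled minus control. Where a pair of signals is given, the control array comes first. With 1 pooled sample per group nothing could be tested, and every difference describes these 2 arrays. Probe sets of 1 gene disagreed with an SD of 0.64 per log2 ratio over 2660 genes, and no other error could be measured. The brightest probe set of a gene lay 0.41 higher on average than the next, and of 283 genes past 2-fold on the higher side at the brightest, 84 were so at the next. That SD does not take in how animals, pools, labelling or arrays vary. The trimmed mean signal was 150.1 on both arrays. The 3' to 5' signal ratio was 2.27 (control) and 16.0 (cKO-labelled) for b-actin, and 1.49 and 7.25 for Gapdh, so the arrays differ in it exactly as the groups do. The part of this difference in any value below was not tested. In pooled cells, fewer cells of a type and less RNA per cell cannot be told apart.

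The signals of the enzyme that frees arachidonic acid, of the inducible cyclooxygenase and of 1 receptor for prostaglandin E2 were at least 2-fold higher on the cKO-labelled array, and no member was at least 2-fold lower. The 3 genes are Ptgs2, Ptger2 and Pla2g4a. Among 8593 genes that passed the floor on either array, 6.21% reached 2-fold on the higher side and 13.0% on the lower side. The other 6 members lay within 2-fold, with Ptger4 at a higher signal and Hpgd, Ptgfr, Ptger3, Ptgis and Ptges at lower ones. The median log2 ratio of the 9 members was -0.15, where that of all 8593 genes was -0.10. At a threshold of 1.5-fold, 4 members were higher and 2 lower, where 18.5% and 26.4% of all genes were. At 3-fold, only Ptgs2 was higher and no member was lower, where 1.23% and 3.84% of genes were. At the level of probe sets, 3 of the 12 member probe sets above the floor were at least 2-fold higher, where 6.84% of all 13284 were, and none was at least 2-fold lower, where 13.9% were. At 1.5-fold, 4 of the 12 were higher and 3 lower, beside 18.7% and 27.5% of all probe sets, and at 3-fold 1 was higher and none lower, beside 1.39% and 4.43%.

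**Figure D1:**
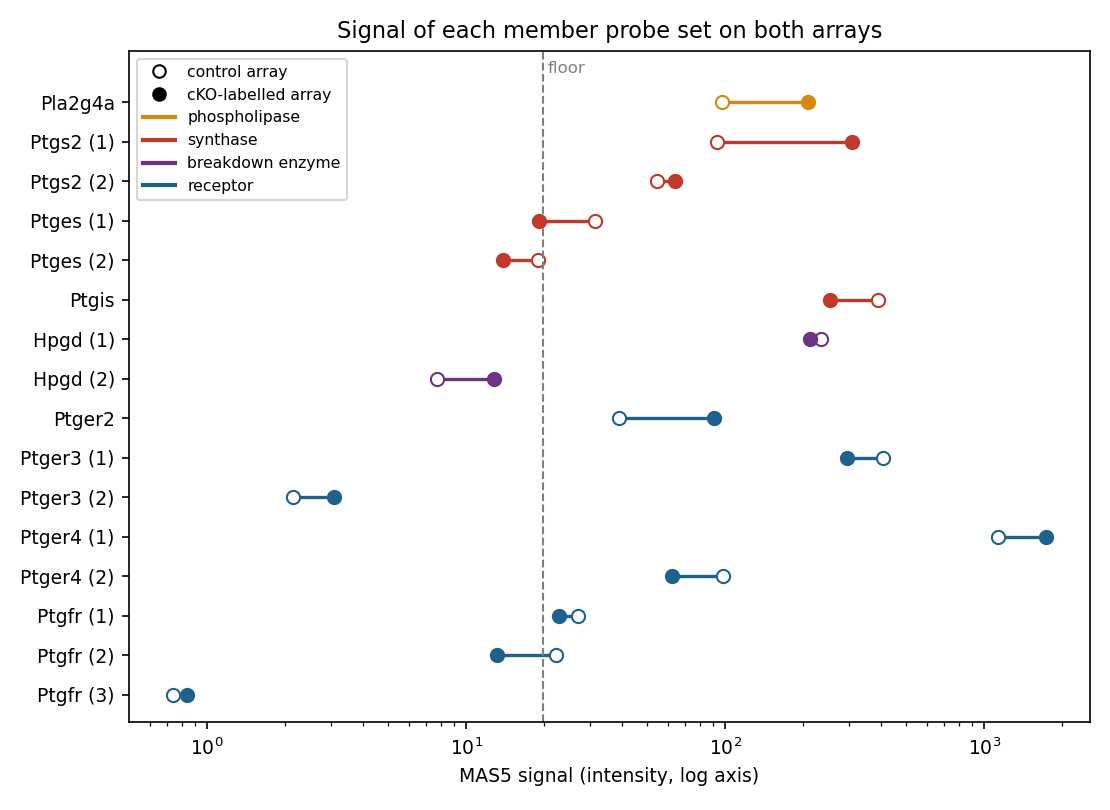
The plot shows the MAS5 signal (log axis) of each of the 16 member probe sets on the control array (open circles) and the cKO-labelled array (filled circles), coloured by role, with the floor of 19.7 as a dashed line. Probe sets of a gene are numbered from the brightest. The longest line to the right above the floor is that of the brighter Ptgs2 probe set, from 93.2 to 308, and the lines of the Ptger4 probe sets run in opposite directions.

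Pla2g4a, the phospholipase that starts the pathway, gave 97.3 for the control pool and 208 for the cKO-labelled pool. This is 2.14-fold higher, a log2 ratio of 1.10, and 4.61% of genes had a higher ratio. The gene has only 1 probe set, so its ratio has no further check on these arrays. Its log2 ratio stayed between 1.06 and 1.38 under the 8 other settings tried. The other floors, the median over probe sets and leaving out _s_at and _x_at probe sets could not change it. Its 1 probe set lies above each floor and carries neither suffix. The range therefore shows only how the scalings and the pseudocount moved it.

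Ptgs2, the inducible cyclooxygenase, had signals of 93.2 and 308 at its brighter probe set, 3.30-fold higher on the cKO-labelled array. The log2 ratio of 1.72 ranked 66th from the highest among 8593 genes. Its other probe set had signals of 54.5 and 63.8 (log2 ratio 0.23). Both probe sets lay above the floor on both arrays and both were higher on the cKO-labelled array, but the other one stayed far inside 2-fold. A gap between probe sets as wide as that of Ptgs2 was found for 13.4% of the 2660 genes with a pair of measured probe sets. With the median over probe sets in place of the brightest, the log2 ratio of Ptgs2 was 0.97, just inside 2-fold.

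Ptger2, the receptor EP2, which raises cyclic AMP, had signals of 38.9 and 90.5, 2.33-fold higher on the cKO-labelled array (log2 ratio 1.22). A higher ratio was found for 3.18% of genes. Only 1 probe set measures it, and its control signal was dim. With the floor at the 60th percentile, a signal of 66.3 that lies above its control value, the log2 ratio was bounded at 0.45 or higher.

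The bases upstream of the start sites of these 3 genes are printed because they are the members that were at least 2-fold higher together. They come from RefSeq on the build GRCm38.p6, matched for 9 of the 10 members (all but Ptgis), and run over the 250 bases before the start, 5′ to 3′ on the gene's strand. The Ptgs2 window is chr1:150099781-150100030 on the plus strand, the Ptger2 window is chr14:44987861-44988110 on the plus strand, and Pla2g4a has windows for 2 start sites, both on the minus strand, an outer one at chr1:149961291-149961540 and an inner one at chr1:149922440-149922689. Capitals mark every match, on either strand, to the motifs named in the next paragraph.
Ptgs2: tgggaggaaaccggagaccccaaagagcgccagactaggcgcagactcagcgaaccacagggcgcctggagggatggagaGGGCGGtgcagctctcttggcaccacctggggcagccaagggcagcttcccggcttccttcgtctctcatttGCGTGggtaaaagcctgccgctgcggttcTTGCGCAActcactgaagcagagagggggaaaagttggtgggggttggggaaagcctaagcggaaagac
Pla2g4a, outer start: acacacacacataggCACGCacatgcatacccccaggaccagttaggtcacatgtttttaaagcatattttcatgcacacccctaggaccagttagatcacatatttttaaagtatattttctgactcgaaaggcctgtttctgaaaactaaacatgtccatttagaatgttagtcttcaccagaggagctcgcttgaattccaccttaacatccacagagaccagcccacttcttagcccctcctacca
Pla2g4a, inner start: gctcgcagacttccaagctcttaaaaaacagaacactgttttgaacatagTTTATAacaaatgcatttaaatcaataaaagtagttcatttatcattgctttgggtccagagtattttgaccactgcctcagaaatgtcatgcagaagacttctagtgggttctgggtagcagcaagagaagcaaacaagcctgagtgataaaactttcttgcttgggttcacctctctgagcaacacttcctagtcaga
Ptger2: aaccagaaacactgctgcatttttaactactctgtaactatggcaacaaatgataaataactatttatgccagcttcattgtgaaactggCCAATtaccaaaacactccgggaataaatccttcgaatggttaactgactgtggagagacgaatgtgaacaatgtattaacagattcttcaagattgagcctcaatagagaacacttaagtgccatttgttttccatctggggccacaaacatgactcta

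The 4 windows had little in common in these letters. The C/EBP motif TTGCGNAA matched once in Ptgs2, as TTGCGCAA from base 69 to base 62 upstream of the start, and is present in 0.670% of 32851 windows of this length. It matched in no other member window. The core GCGTG of the HIF motif matched in Ptgs2 (98 to 94 upstream) and, on the opposite strand, at the outer start of Pla2g4a (235 to 231 upstream), and not in Ptger2. It is present in 28.2% of all windows, and also in those of Ptges, Hpgd and Ptger3. As deposited, their signals were lower on the cKO-labelled array, though Hpgd has no settled direction. The other HIF core, ACGTG, present in 16.6% of windows, matched in none of the 4.

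Ptgs2 also held the GC box GGGCGG (32.7% of windows). The CCAAT box CCAAT (33.8%) matched in Ptger2, and the TATA box TATAAA (12.4%) matched on the opposite strand at the inner start of Pla2g4a. The E-box CACGTG (6.02%), the cyclic AMP element TGACGTCA (1.55%), its core TGACG (17.8%) and the AP-1 motif TGANTCA (6.75%) matched in none of the 4. CACGTG contains ACGTG, and TGACGTCA contains TGACG, so these matches are not independent. A match is a description of letters, and a missing match says only that the letters are not in this window. The GC content was 61.6% for Ptgs2, 43.2% and 39.6% for the outer and inner Pla2g4a windows and 38.0% for Ptger2, against a median of 52.4% over all windows.

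Pla2g4a and Ptgs2 are also neighbours. No protein-coding gene lies between them on chromosome 1 in the RefSeq gene table. The next genes were looked at after the members' values were known. On the Ptgs2 side, Pdc was at the floor on both arrays and Odr4 had signals of 80.8 and 161 (log2 ratio 0.99). On the other side of Pla2g4a, Rgs18 was at the floor on the control array and had a signal of 29.6 on the cKO-labelled array, which bounds its log2 ratio at 0.58 or higher. As deposited, each of the 4 genes of this stretch above the floor, from Rgs18 to Odr4, had a higher signal on the cKO-labelled array, as did 3839 of all 8593 genes. No value was used here for Brinp3, which lies between Rgs18 and Pla2g4a. The neighbours of Ptger2 gave another picture, with Ptgdr at the floor on both arrays and Txndc16 at a log2 ratio of -0.58.

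The terminal synthases had lower signals on the cKO-labelled array, as deposited and under every scaling tried, though not by 2-fold. Ptgis, the prostacyclin synthase, had signals of 388 and 253 (log2 ratio -0.62). That is 1.53-fold lower on the cKO-labelled array, and 25.2% of genes had a lower ratio. Ptges, the inducible prostaglandin E synthase, had signals of 31.4 and 19.0 at its brighter probe set, the latter below the floor, so it was at least 1.59-fold lower. Its other probe set had signals of 18.9 and 13.9, below the floor on both arrays. The log2 ratios of the 3 measured synthases thus ran from -0.67 or lower for Ptges to 1.72 for Ptgs2.

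Hpgd, the dehydrogenase that inactivates prostaglandins, had signals of 235 and 211 (log2 ratio -0.15), close to the median of all genes. This probe set carries the suffix _s_at, which marks probes that can match more than 1 transcript. The other Hpgd probe set had signals of 7.69 and 12.8, both below the floor. The ratio turned to 0.13 when the arrays were centred on their medians, so Hpgd has no settled direction.

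The 4 receptors went different ways. Beside Ptger2, Ptger4 (the receptor EP4, which also raises cyclic AMP) had signals of 1134 and 1731 at its brighter probe set, a log2 ratio of 0.61, and 98.3 and 62.3 at the other, a log2 ratio of -0.66. Its direction is therefore not settled. A difference as large as that between its probe sets, 1.27, was found for 20.6% of genes with a measured pair. Ptger3, the receptor EP3, which mainly lowers cyclic AMP, had signals of 408 and 296, 1.38-fold lower on the cKO-labelled array (log2 ratio -0.46). Its other probe set had signals of 2.15 and 3.09, below the floor.

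Ptgfr, the receptor for prostaglandin F2 alpha, was dim at all 3 of its probe sets. The brightest had signals of 27.1 and 22.9 (log2 ratio -0.24), the next 22.3 and 13.1, of which the latter lies below the floor, and the third 0.738 and 0.837. With medians as the centre its log2 ratio was 0.04, so no direction is settled for Ptgfr either. Of the 4 receptors, only Ptger2 passed 2-fold, and Ptger3 and Ptgfr lay on the lower side as deposited.

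**Figure D2:**
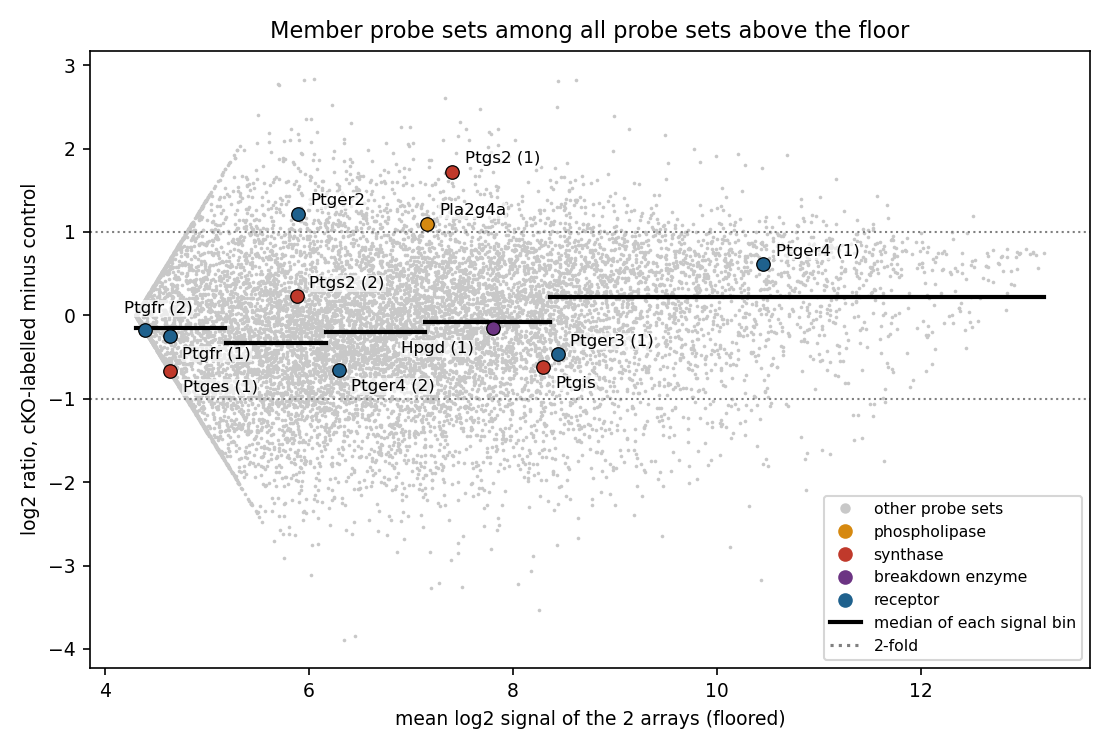
The plot sets the log2 ratio (cKO-labelled minus control) of the 13284 probe sets above the floor against their mean log2 signal, with the 12 member probe sets coloured by role and black lines at the median ratio of each of 5 signal bins of equal size. Ptgs2 (brighter probe set), Ptger2 and Pla2g4a lie above the dotted 2-fold line, and no member lies below the lower one.

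Ratios moved with signal on these arrays, so the members were also read within 5 bins of probe sets of like signal. The median log2 ratio was -0.33 in the bin of probe sets that holds Ptger2 and the other Ptgs2 probe set. It was -0.20 in the bin that holds the other Ptger4 probe set. It was -0.08 in the bin that holds the brighter Ptgs2 probe set, Pla2g4a, Hpgd and Ptgis. In the brightest bin, which holds Ptger3 and the brighter Ptger4 probe set, it was 0.22. Within its own bin, a higher ratio was found for 0.941% of probe sets against Ptgs2, 4.93% against Ptger2 and 5.49% against Pla2g4a. For the brighter Ptger4 probe set the share was 28.0%, for its other probe set 72.4%, and for Ptger3 it was 79.3%. The brighter Ptger4 probe set thus lay nearer to its like-signal probe sets than its log2 ratio of 0.61 shows.

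The balance of higher and lower genes over the whole array depended on the scaling. Of all genes past 2-fold, 32.3% were higher as deposited, 46.3% after quantile normalization, 63.1% after median centring and 45.3% with the trend on signal removed. The median log2 ratio of all genes was -0.10 as deposited and 0.03, 0.16 and 0.00 under the same scalings. Under each of them 3 of the 9 members were at least 2-fold higher and none was at least 2-fold lower. Of all genes, 8.22%, 13.3% and 7.88% were at least 2-fold higher after quantile normalization, median centring and removal of the trend. On the lower side the shares were 9.54%, 7.79% and 9.50%. As deposited they were 6.21% (higher) and 13.0% (lower). Ptgs2, Ptger2 and Pla2g4a had log2 ratios of 1.86, 1.46 and 1.27 after quantile normalization.

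**Figure D3:**
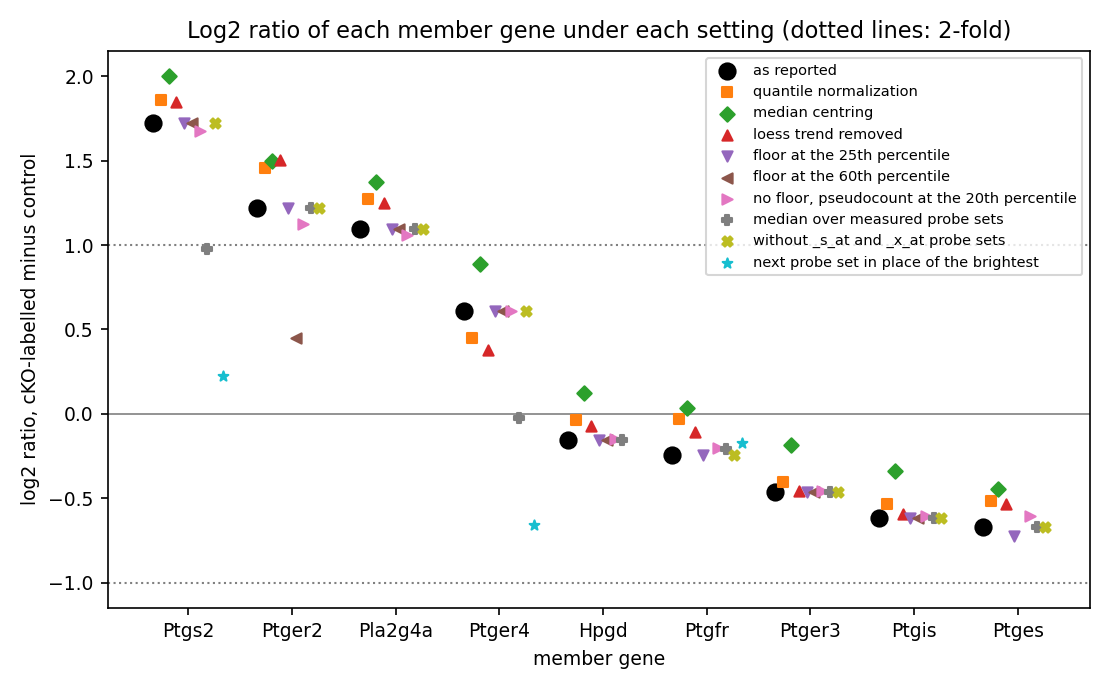
The plot gives the log2 ratio of each member gene as deposited (black circles) and under the other settings (coloured marks), with dotted lines at 2-fold. Pla2g4a, whose 1 probe set several settings cannot act on, stays above 2-fold throughout. Ptgs2 drops below it where the other probe set enters (0.97 and 0.23), and Ptger2 with the highest floor (0.45).

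None of the other genes of prostaglandin synthesis, transport and reception reached 2-fold. Of all genes, 6.21% reached it on the higher side and 13.0% on the lower side. Of 21 names listed, 16 had a probe set and 8 genes were above the floor. All 8 had a lower signal on the cKO-labelled array as deposited, as had 4754 of all 8593 genes. However, 3 of the 8 were higher after each of the 3 other scalings. The median log2 ratio was -0.40, and -0.10 over all genes. The brightest were Ptgr1, a reductase that inactivates prostaglandins and leukotrienes (signals 266 and 200.1, log2 ratio -0.41), and Slco2a1, the transporter that carries prostaglandins into cells (234 and 179, log2 ratio -0.39). A further probe set of Slco2a1 went the other way, at 23.4 and 42.1 (log2 ratio 0.85). The synthases Ptgds and Hpgds for prostaglandin D2 and the receptors Ptger1, Ptgdr, Ptgdr2 and Tbxa2r did not pass the floor on either array, nor did Akr1c18 and Ptgfrn.

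Among 17 compared genes of arachidonic acid release and of its other branches, 1 passed 2-fold on the higher side and 2 on the lower side, shares near those of all genes (6.21% and 13.0%). On the lower side 1 gene was left after each other scaling, where 7.79% to 9.54% of all genes were at least 2-fold lower. None was left with the floor at the 60th percentile and 4 passed with it at the 25th, beside 9.28% and 13.1% of all genes. On the higher side none was left with the median over probe sets, beside 4.24%. Acsl4, which couples arachidonic acid to coenzyme A, had signals of 61.4 and 255, 4.15-fold higher on the cKO-labelled array (log2 ratio 2.05). Its further probe sets gave a bound of at least 1.81-fold higher and a log2 ratio of 0.07. The lower genes were other phospholipases, Pla2g12a (signals 56.9 and 21.6, log2 ratio -1.40) and Pla2g6 (54.8 and 27.3, log2 ratio -1.01). The other phospholipase genes above the floor, picked once their values were known, were Pla2g10, Pla2g15 and Pla2g7, with log2 ratios of -0.87, -0.39 and -0.12, where Pla2g4a had 1.10. The list had a median of -0.32, with 14 genes lower and 3 higher.

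Known inducers and regulators of Ptgs2 went both ways. Of 15 compared, 1 passed 2-fold on the higher side and 2 on the lower side, shares near the 6.21% and 13.0% of all genes. After median centring the counts were 3 and 1, beside 13.3% and 7.79% of all genes. The median log2 ratio was -0.36 as deposited and -0.08 after median centring. The cytokine gene Il6 had signals of 73.8 and 160 (log2 ratio 1.11). Zfp36, whose protein speeds the decay of AU-rich messages, had signals of 1667 and 678 (log2 ratio -1.30), and Rela, a subunit of NF-kB, 366 and 177 (log2 ratio -1.05). Picked once their values were known, the inducer Il1b had a log2 ratio of -0.93 and the early-response genes Egr1 and Fos 0.78 and 0.61. Also so picked, Jun, another early-response gene, had -0.55, and 0.07 at its next probe set. Cebpb and Cebpd had -0.36 and -0.46, and -2.41 and 1.08 at their further probe sets. Nfkbia, the inhibitor of NF-kB, had 0.99, with a range of -0.72 to 2.04 over its further probe sets. Of the 15 genes, 6 were higher and 9 lower as deposited.

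**Figure D4:**
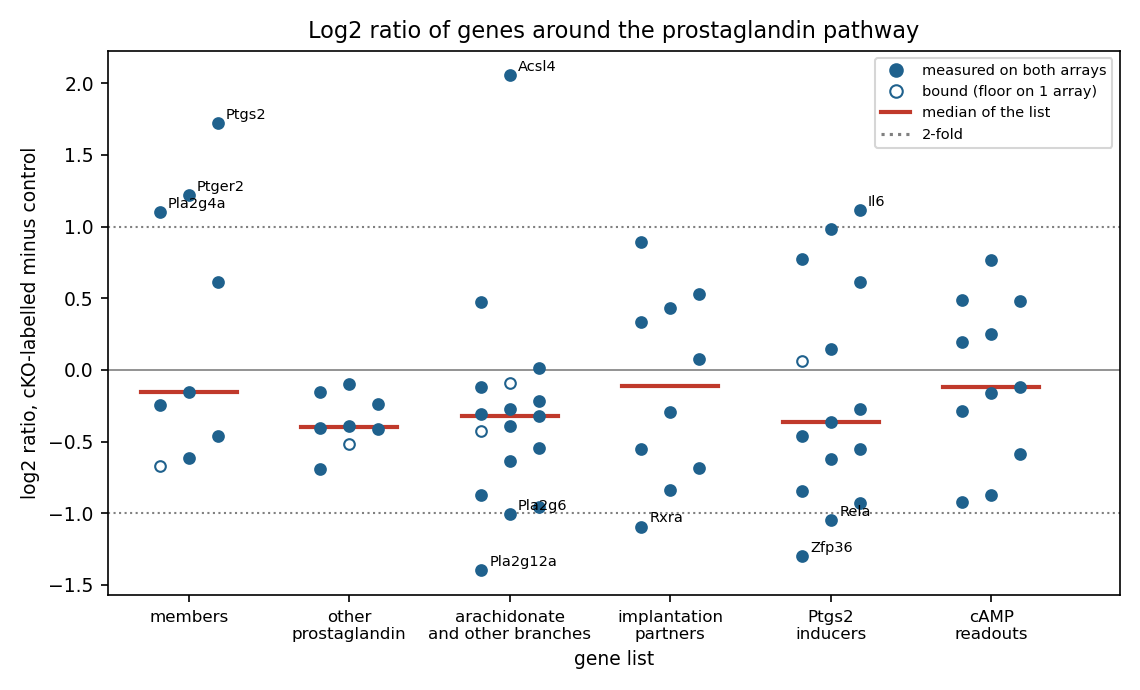
The plot shows the log2 ratio (cKO-labelled minus control) of each gene above the floor in the member list and 5 further lists, with red lines at the medians and open circles for bounds. Ptgs2, Ptger2, Pla2g4a, Acsl4 and Il6 lie above 2-fold, and the 8 other prostaglandin genes lie between -0.69 and -0.10.

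Markers of other cell types differed between the arrays, and their part in the members' ratios was not tested. Their counts are to be read beside those of all 8593 genes. Of these, 6.21% were at least 2-fold higher, 13.0% at least 2-fold lower and 4754 lower by any amount. Of 13 stromal markers, 12 were above the floor on both arrays and Esr1 was at the floor on the control array, with a summed signal of 29238 and 38595. Hoxa11 passed 2-fold on the lower side (389 and 107.7, log2 ratio -1.85) and none on the higher side. These sums and counts use the brightest probe set of each gene. Further probe sets of Vim, Col1a1 and Pdgfra gave log2 ratios down to -0.58, -1.26 and -1.70. Those of Nr2f2, at -0.54 at its brightest, gave 0.81 and 0.70. The stromal median log2 ratio was 0.03 as deposited, -0.16 after quantile normalization, -0.08 with the trend on signal removed and 0.29 after median centring. All 12 endothelial markers were lower as deposited (11 of 12 after median centring), 6 of them at least 2-fold, with a summed signal of 4361 and 2181. Ptgis is known from vessel walls, and 8 of 11 smooth muscle and pericyte markers were also lower, 4 at least 2-fold. Their summed signal was 13010 and 12592, and Synpo2 was at the floor on both arrays. That sum includes higher signals of the bright genes Acta2 (4246 and 6274) and Rgs5 (2123 and 3157). Further probe sets of Rgs5 gave log2 ratios of 0.62, -0.42 and -0.76, and that of Myh11 (-0.78 at its brightest) gave 1.21. Without _s_at and _x_at probe sets, 9 of 10 were lower. Myeloid cells can make Ptgs2, and of 12 myeloid markers 2 passed 2-fold on the higher side and 5 on the lower side, with a summed signal of 4709 and 4395. C1qb, 1 of the higher myeloid genes, had a log2 ratio of 1.58, but its other probe sets gave 0.54 and -2.68, and 1 myeloid marker passed 2-fold on the higher side with the median over probe sets or without _s_at and _x_at probe sets. Of 12 compared epithelial markers, 1 passed 2-fold on the higher side and 3 on the lower side, with sums of 2461 and 2016, and Krt19 was at the floor on both arrays. The higher one was Ehf (log2 ratio 1.37), whose further probe sets gave bounds of 0.76 and 0.10 or higher. With the median over probe sets no epithelial marker passed 2-fold on the higher side, and after each other scaling 2 did.

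Smaller lists were lower or mixed. Of 6 NK cell markers, 3 passed 2-fold on the lower side and 1 on the higher side, with sums of 517 and 441. Of the mast cell markers, 4 could be compared, all of them lower and 2 at least 2-fold, with sums of 319 and 125, and Tpsb2 was at the floor on both arrays. Of 4 platelet markers, Ppbp and Gp9 did not pass the floor on either array, Pf4 had a log2 ratio of 0.27, and Itga2b was at least 2.22-fold lower, with sums of 272 and 278. Of the 8 marker lists, the myeloid, NK and epithelial ones held a gene at least 2-fold higher at its brightest probe set as deposited. The others held none.

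**Figure D5:**
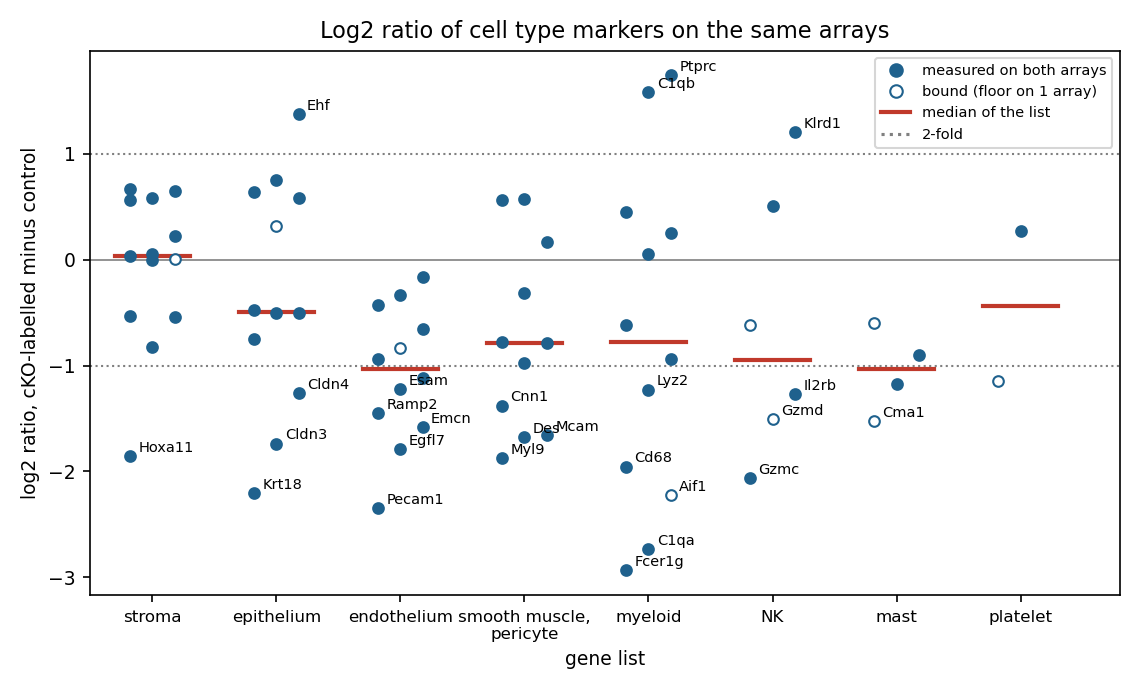
The plot shows the log2 ratio (cKO-labelled minus control) of each marker above the floor in 8 cell type lists, with red lines at the medians and open circles for bounds. The stromal median lies at 0.03 as deposited, the endothelial median at -1.03 and the myeloid markers spread from -2.93 to 1.74.

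Of the genes that the labels name as deleted, each still had a probe set well past the floor in the cKO-labelled pool. Epas1, which encodes Hif2 alpha, had a log2 ratio of 0.39, Hif1a 1.10 and Rac1 -0.46 at the brightest probe sets. The next Rac1 probe set had signals of 664 and 332, and 2 further Hif1a probe sets gave 1.38 and 0.52. Where the probes lie relative to the deleted exons was not analysed here, so these values do not check the genotype. The members' ratios therefore compare a control array with a cKO-labelled one and not 2 known genotypes.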

How the data were processed

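Per the labels' protocols, RNA came from a Trizol extraction and an RNeasy cleanup, and 100 ng was amplified and biotin-labelled by the Affymetrix 3' Express kit. The deposited values are MAS5 intensities on a linear scale, made by the authors in Affymetrix Expression Console version 1, per the submitters' processing notes. The authors' scaling was kept, and its target value was not used here. Such a kit copies from the poly-A tail, so probe sets far from the 3' end depend on RNA length.

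Leaving out control probe sets, 22626 remained, and the annotation names 1 gene for 20380, several for 691 and none here for 1555. Symbols were brought up to date by gene identifier for 20351 of them, through RefSeq on GRCm38.p6. A gene took its probe set of highest mean log2 signal, and genes at the floor on both arrays (3800) were left out. A ratio with 1 array at the floor is a bound. Named genes are all members, up to 4 genes per other list past 2-fold, or the 2 brightest where none was. Members and lists were chosen with earlier results of these data known. Motifs were searched on both strands. The code for the ratio and the 2-fold rule was tested on simulated data. Their noise was smaller than the disagreement between probe sets given above, and only brighter genes were changed. That test therefore does not measure how reliable a 2-fold difference is on these arrays. Python 3.11.15, numpy 2.4.6, pandas 2.3.3 and statsmodels 0.14.6 were used. The number of arrays limits the precision.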

Additional observations from a re-analysis of the deposited data

How the results depend on the processing

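Alternatives were quantile normalization, median centring, removal of a loess trend (span 0.4), floors at the 25th and 60th percentiles, the median over probe sets, a pseudocount (20th percentile) instead of a floor, leaving out _s_at and _x_at probe sets, and thresholds of 1.5-fold and 3-fold. The next probe set in place of the brightest was added after the data had been seen. At 1.5-fold, 2 members, 3 member probe sets and 1 other prostaglandin gene were lower, where none was at 2-fold. At 3-fold, 1 member and 1 member probe set were higher. The count of 3 members at least 2-fold higher became 2 with the floor at the 60th percentile and with the median over probe sets, and was 3 under the other scalings, the lower floor, the pseudocount and without _s_at and _x_at probe sets. Of all genes, 6.04% were at least 2-fold higher with the floor at the 60th percentile and 4.24% with the median over probe sets. Where the count stayed at 3, the share ran from 5.57% to 13.3%. Of 72 log2 ratios of members under other settings, 68 moved by less than the SD of 0.64. The other 4 were Ptger2 with the highest floor (0.45), Ptgs2 with the median over probe sets (0.97) and with the next probe set (0.23), and Ptger4 with the next probe set (-0.66). Many of the 68 could not move. The floors, the median over probe sets and the removal of _s_at and _x_at probe sets did not act on their probe sets. Median centring shifts all ratios of signals above the floor by the same amount. The count of 68 is thus no measure of how reliable the ratios are. No member past 2-fold changed sign. No paired analysis was possible because each group has 1 array. Signal over background limits Ptges, Ptgfr and Ptger2, which lie near the floor on at least 1 array.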

Other observations

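Genes that act with prostaglandins at implantation, and genes of cyclic AMP signalling and response, were compared as 2 further lists. Whether any gene of the latter list responds to Ptger2 or Ptger4 in these cells was not tested. Of 10 implantation genes above the floor, 1 passed 2-fold on the lower side and none on the higher side. These shares were near or below the 13.0% (lower) and 6.21% (higher) of all genes. The median log2 ratio of the 10 was -0.11. After quantile normalization, median centring or removal of the trend on signal, 1 passed 2-fold on the higher side and none on the lower side. Of all genes, 8.22%, 13.3% and 7.88% were then at least 2-fold higher, and 9.54%, 7.79% and 9.50% at least 2-fold lower. The gene past 2-fold as deposited was Rxra, a nuclear receptor that pairs with PPAR delta (signals 86.1 and 40.4, log2 ratio -1.09), and its further probe set had the cKO-labelled signal below the floor. Lpar3, the lysophosphatidic acid receptor upstream of Ptgs2 in the mouse uterus, did not pass the floor on either array, nor did Ppard, Ppara, Pparg or Ereg. Of the genes chosen after their values were seen, the cytokine gene Lif had signals of 27.8 and 51.6 (log2 ratio 0.89) and Bmp2, a decidual growth factor, 151 and 218 (log2 ratio 0.53). Also so chosen, Il6st, the shared receptor chain for Lif, had a log2 ratio of -0.83 and -1.07 at its next probe set, Rxrb had -0.68 and the co-chaperone gene Fkbp4 -0.55.

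Of 11 genes of cyclic AMP signalling and response, none was past 2-fold in either direction as deposited, where 6.21% of all genes passed it on the higher side and 13.0% on the lower side. Under median centring and with the pseudocount 1 passed it on the higher side, beside 13.3% and 5.72% of all genes. Without _s_at and _x_at probe sets 1 passed it on the lower side, beside 15.4%. As deposited, 5 were higher and 6 lower. The brightest were Gnas, the stimulatory G protein (signals 2984 and 2662, log2 ratio -0.16), and Nr4a1, an early-response nuclear receptor (1079 and 886, log2 ratio -0.28).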
